A study of Danio rerio with 12 samples.

Results

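The genes described here are the keratins of the larval zebrafish tail and the genes of the junctions that hold its epidermis together. They were taken from the deposited count table as a list of 47 gene names plus every other symbol that starts with krt and a digit. Of the names, 46 were matched, evplb was not analysed here, and KRT222 was the 1 further symbol, which gave 49 gene rows of 30258 in all. By general knowledge of zebrafish skin they were placed in classes, namely 14 rows of the periderm, 12 of the basal layer, 8 of junctions found in both layers, 4 keratins of the simple-epithelial type and 11 keratins of no fixed layer. A filter on low counts left 42 of the 49 for testing.

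Tails of wild-type larvae were either cut or left uncut, and were kept either in the vehicle dimethyl sulfoxide (DMSO) at 0.1% or in SB431542 at 50 µM, which blocks the kinases ALK4, ALK5 and ALK7 of the TGF-β, activin and nodal receptors. Cut larvae lost about 200 µm of tail at the pigment gap at 72 h after fertilization, and a further 200 µm of the stump was taken for RNA 18 h later. Per the labels, uncut larvae gave the same region at 90 h without an earlier operation, and both agents were given from 72 to 90 h. The labels do not say whether that region of uncut tails lay at the tip or beyond the pigment gap. If it lay at the tip, position along the tail cannot be told apart from excision. Each library was made from a pool of 100 tails, with 3 libraries in each of the 4 groups. These were replicates 1, 2 and 4 of uncut DMSO, 1, 3 and 4 of cut DMSO, and 2, 3 and 4 of uncut and of cut SB431542, and values of a group are given in that order. Nothing in the labels says that the pools of a group came from separate clutches, so p-values measure the spread between pools, which may be partly technical.

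The skin of a larval fish has an outer layer, the periderm, over a basal layer that is fixed to the basement membrane. Keratins form filaments from pairs of a type I and a type II chain, and each layer is known for its own set. Filaments are tied to neighbouring cells at desmosomes and to the basement membrane at hemidesmosomes, while claudins and cadherins seal and join the cells. krt8 and krt18 are the keratin pair of simple epithelia in vertebrates.

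Total counts ran from 7368986 to 12914981 per library. Counts came from the end of each transcript next to its poly(A) tail, so they do not grow with transcript length. Levels are therefore set side by side between genes, less surely where counts were not whole numbers, as for cyt1, cyt1l, krt17 and krt91. Levels are CPM, counts scaled by TMM factors to 1 common library size, which sets the typical gene equal between libraries. Uncut SB431542 replicate 4 stood apart from the rest of its group in these genes. cyt1 was at 4972 CPM in it and at 7499.8 and 8061 CPM in the other libraries of the group, and the DSP gene ENSDARG00000076673 was at 43.8 CPM against 85.7 and 109.5. Without it 1432 genes were called for excision under DMSO, against 780 with it, in a fit whose groups share 1 estimate of the spread. It was kept, and results that change without it are named below. Uncut DMSO replicate 4 stood apart from its group as well. Its periderm rows summed to 29380 CPM, against 19636 and 19836 CPM in the other libraries of the group. All 49 rows held 3.30% of its counts, against 2.46% and 2.57%. Without that library 344 genes were called for excision under DMSO, against 374 without uncut DMSO replicate 1 and 426 without uncut DMSO replicate 2. The drop from 780 over all genes was thus not particular to it. Among the genes described here, krt5, cyt1, cyt1l, icn2 and krt91 lost that call without uncut DMSO replicate 4. They kept it without uncut DMSO replicate 1 or 2, while krt8 and evpla did the reverse. Uncut DMSO replicate 4 was also kept.

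The keratins spanned a wide range of levels in uncut DMSO tails. The highest level was that of krt4, a type II keratin of the periderm, at 9295 ± 2408 CPM (mean ± SD, n = 3). cyt1, a type I keratin of the periderm, was next at 7369 ± 1605 CPM, a difference within the SD of krt4. The basal keratin krtt1c19e stood at 3826 ± 429.6 CPM, level with krt91 at 3607 ± 1417 CPM. cyt1l, krt17 and krt5 followed at 1969 ± 594, 1771 ± 511 and 1558 ± 251 CPM, and they did not differ beyond their spread. The highest level outside the keratins and ictacalcins was that of col17a1a, the collagen of hemidesmosomes, at 173 ± 40.3 CPM. All 49 rows together held 2.78% ± 0.457 of the counts of uncut DMSO libraries and 1.99% ± 0.245 of those of cut DMSO libraries. The 7 rows left out by the filter never passed 1.06 CPM in any library. They were krt93, krt95, krt98, krt1-19d, krt18a.2 and a second row each of FREM2 and JUP, and krt95 and krt18a.2 were at 0 in all 12 libraries.

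Excision under DMSO moved the keratins in both directions. Of the 42 tested genes 10 fell, while 1.93% of all 13978 tested genes did, and 5 rose, beside 3.65% of all genes. A call here is an adjusted p under 0.05 in edgeR's quasi-likelihood test, with Benjamini-Hochberg adjustment over all 13978 genes. 7 of the 13 tested periderm genes fell and 0 rose, with a median log2 fold change of -0.82, against 0.02 for all tested genes. 2 of the 11 tested basal genes fell and 0 rose, with a median of -0.12. None of the 7 tested junction genes was called, at a median of 0.40. 2 of them had an unadjusted p under 0.05, beside 2858 of all 13978 genes. With 780 of all 13978 genes called, 0 of 7 does not set this class apart. All 3 tested keratins of the simple-epithelial type rose, at a median of 0.94. In a bulk sample, fewer cells of a type and less RNA per cell cannot be told apart, and this holds for every value that follows. The periderm count rests on single libraries in part: it was 2 without cut DMSO replicate 3, 3 without uncut DMSO replicate 4 and 4 without cut DMSO replicate 4, with medians between -0.67 and -0.74 in those fits. Calls over all genes were fewer there too, at 321 of 14440, 344 of 14516 and 638 of 14499, against 780 of 13978. Without uncut SB431542 replicate 4 the number of called members was 20, with 15 of them called before and krt15, ppl, cldn1, cldni and 1 DSP row added. That fit called 1432 of 14480 genes in all.

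**Figure D1:**
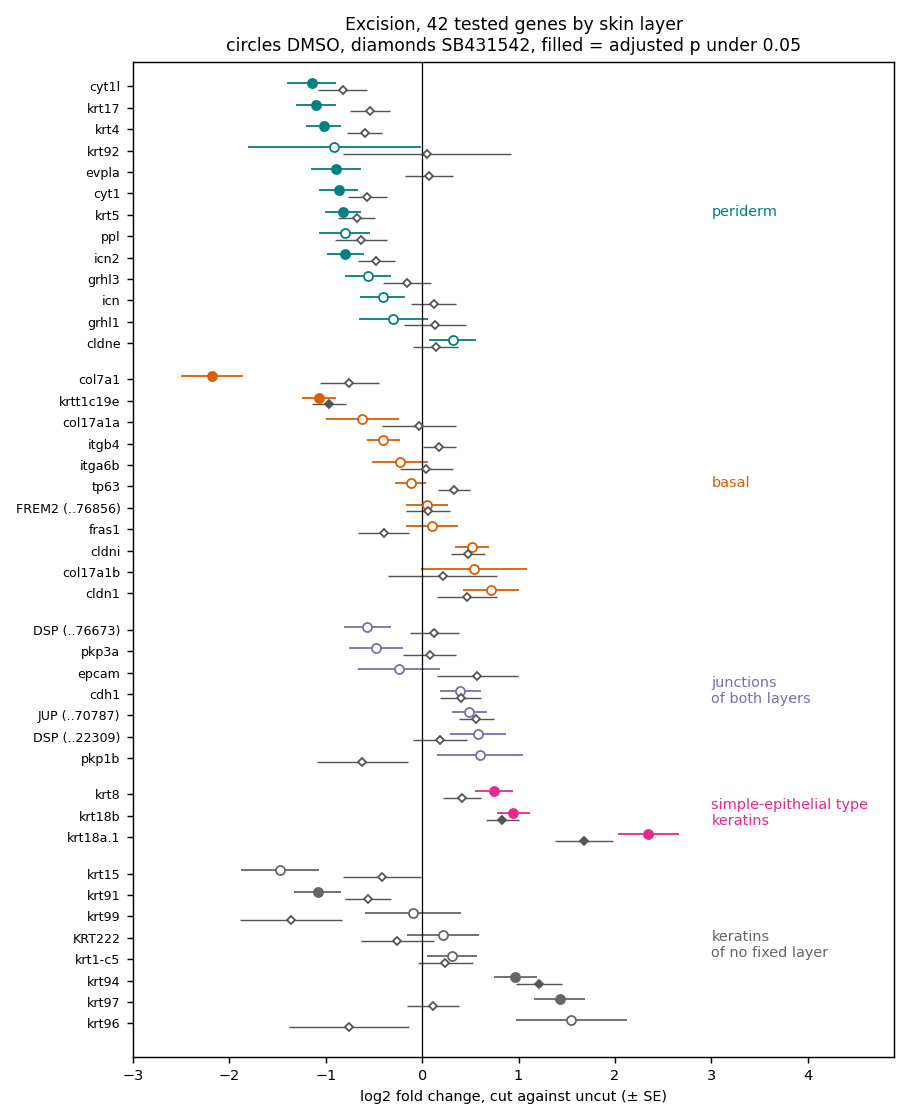
Log2 fold change of cut against uncut tails for the 42 tested genes, grouped by class, as circles for DMSO and diamonds for SB431542 with bars of 1 SE; filled symbols passed an adjusted p of 0.05. Under DMSO 12 of the 13 periderm genes lie below 0 and 7 are filled, while among basal genes only col7a1 and krtt1c19e are filled.

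krt4 stood at 7673, 8151 and 12062 CPM in uncut and at 5348, 4004 and 4379.7 CPM in cut DMSO libraries. It fell by 1.02 ± 0.18 on the log2 scale (SE; edgeR adjusted p = 0.00213). Every cut library lay below every uncut one. Here and below, such separation of a called gene comes from the values behind its call and is no further evidence. The share of all genes without overlap is not given, for called and uncalled genes alike. cyt1 stood at 6415, 6469 and 9221 CPM in uncut and at 4430.3, 3591 and 4096 CPM in cut libraries, a log2 fold change of -0.87 ± 0.20 (edgeR adjusted p = 0.0145). Its groups did not overlap either. krt5, a type II keratin, went from 1408, 1419 and 1848 CPM to 999, 775 and 871 CPM, a log2 fold change of -0.82 ± 0.19 (edgeR adjusted p = 0.0141). krt17, a type I keratin, went from 1371, 1595 and 2347 CPM to 741, 841 and 888 CPM, at -1.11 ± 0.21 (edgeR adjusted p = 0.00298). cyt1l, a close relative of cyt1, went from 1916, 1403 and 2587 CPM to 1145, 719.7 and 807 CPM, at -1.14 ± 0.25 (edgeR adjusted p = 0.0131). For these 3 genes, too, the highest cut library lay below the lowest uncut one. Of the 5, krt4 and krt17 were called under each of the 25 alternative settings and leave-outs. The other 3 lost the call without cut DMSO replicate 3 and without uncut DMSO replicate 4, with adjusted p of at most 0.0974. cyt1l lost it also without cut DMSO replicate 4, and cyt1 and cyt1l when libraries were scaled by total counts.

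**Figure D2:**
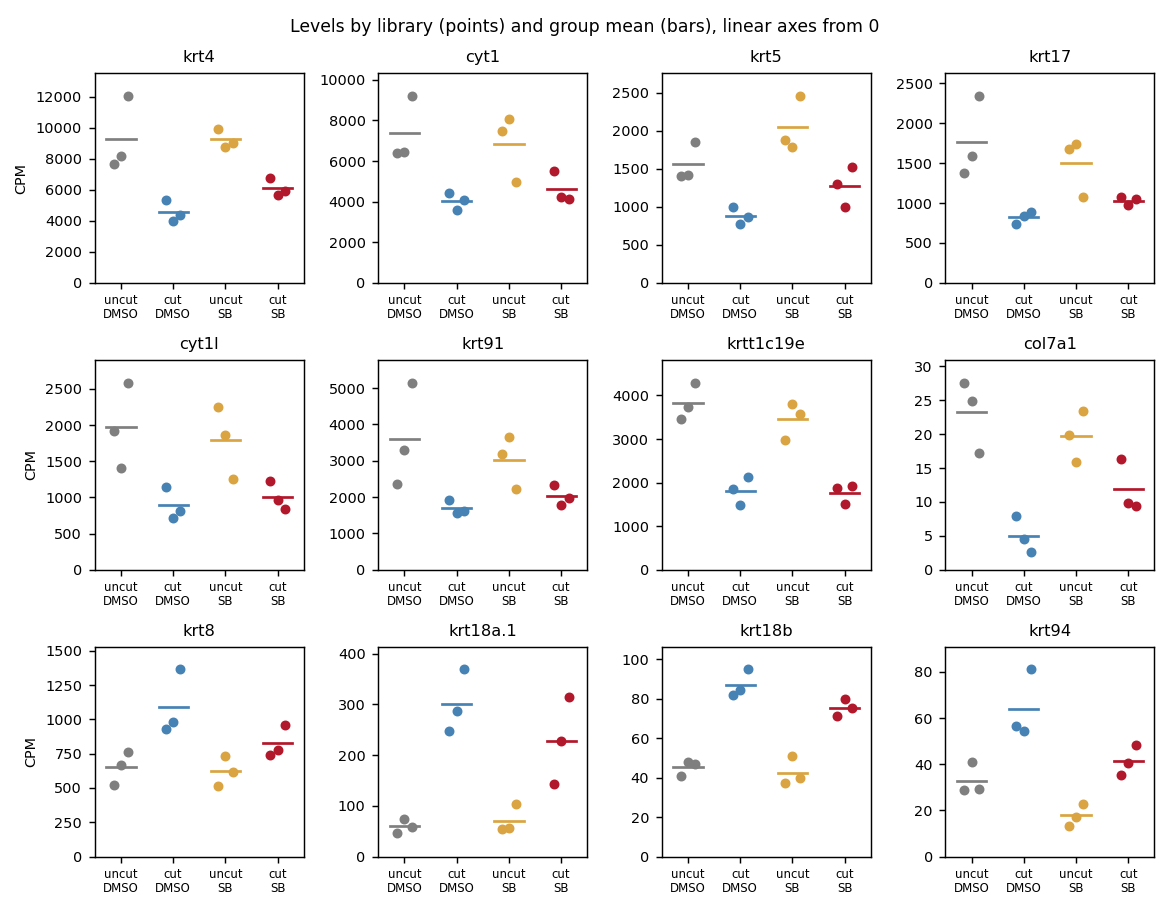
Level in CPM of 12 called members in each library, with points for libraries and bars for group means, on linear axes from 0. In DMSO the 8 genes of the upper rows are lower in all cut than in all uncut libraries, and the 4 of the bottom row are higher in all cut libraries. All 12 were called for excision under DMSO from these same values, so the separation is no further evidence. The share of all genes without overlap is not given here.

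Among the periderm genes other than keratins only icn2 and evpla were called. Ictacalcins are S100-type calcium-binding proteins of the fish skin surface. icn2 went from 412, 386 and 661 CPM in uncut to 308, 259.7 and 273 CPM in cut DMSO libraries, which do not overlap. It fell by 0.80 ± 0.19 on the log2 scale (edgeR adjusted p = 0.0193), a call lost without cut DMSO replicate 3, cut DMSO replicate 4 or uncut DMSO replicate 4 or with total-count scaling (adjusted p up to 0.151 over all alternatives). Counts of icn2 and of its neighbour icn were not whole numbers in 11 libraries each, so reads may be split between them. Their sum stood at 694, 642 and 1138 CPM in uncut and at 631, 528 and 446 CPM in cut DMSO libraries, without overlap. evpla, an envoplakin gene whose mammalian counterpart links keratin to the cell envelope, went from 52.9, 59.4 and 38.0 CPM to 27.4, 33.3 and 19.7 CPM. It fell by 0.90 ± 0.26 (edgeR adjusted p = 0.0470), and this call held in 13 of the 25 alternatives. Counts of evpla were not whole in any of the 12 libraries. Its partner periplakin, ppl, had a log2 fold change of -0.81 ± 0.27 without a call (edgeR adjusted p = 0.0853). The grainyhead factors grhl3 and grhl1, which drive the surface programme, had -0.56 ± 0.24 and -0.30 ± 0.36 without a call, on low levels of 14.6 ± 0.419 and 3.28 ± 0.200 CPM in uncut tails. icn had -0.41 ± 0.23 and the low-level keratin krt92 had -0.91 ± 0.90. cldne, a claudin, was the 1 tested periderm gene with a positive value, 0.32 ± 0.24.

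In the basal class the calls were those of the keratin and of the anchoring collagen. krtt1c19e, the type I keratin used as a marker of basal cells, stood at 3455, 3725.5 and 4297 CPM in uncut and at 1846.5, 1477 and 2129 CPM in cut DMSO libraries. It fell by 1.07 ± 0.18 on the log2 scale (edgeR adjusted p = 0.000965). col7a1, the collagen of the fibrils that anchor the basement membrane to the dermis, stood at 27.6, 24.8 and 17.2 CPM in uncut and at 7.88, 4.47 and 2.65 CPM in cut libraries, a log2 fold change of -2.18 ± 0.33 (edgeR adjusted p = 0.000396). Neither gene's groups overlapped, and both were called in all 25 alternatives. The largest fall in log2 fold change among the 42 tested genes under DMSO was that of an anchoring-fibril gene, and the fall of the basal keratin was as large as those of the periderm keratins krt4 and krt17 within their errors.

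The other 9 tested basal genes, set apart here after their values were known, had a median of 0.05 and no call. 3 of them had an unadjusted p under 0.05, beside 2858 of the 13978 genes tested. tp63, the transcription factor of basal cells, had a log2 fold change of -0.12 ± 0.17, with an interval of 1.96 SE from -0.45 to 0.20. cldni, a claudin, stood at 124, 164 and 158 CPM in uncut and at 189, 219 and 233 CPM in cut DMSO libraries. The groups did not overlap, and its log2 fold change of 0.52 ± 0.18 was not called (edgeR adjusted p = 0.0904). cldn1, the claudin of the skin barrier in mammals, had 0.72 ± 0.29 (edgeR adjusted p = 0.162). Without uncut SB431542 replicate 4 both claudins were called, at adjusted p of 0.0443 and 0.0241. Of the hemidesmosome genes, itgb4 had -0.40 ± 0.17, itga6b -0.23 ± 0.29, col17a1a -0.62 ± 0.38 and col17a1b 0.54 ± 0.55. Of the genes that fix the fin fold epidermis to its matrix, fras1 had 0.10 ± 0.27 and the tested FREM2 row (ENSDARG00000076856) 0.05 ± 0.22.

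The junction genes of both layers were not called in this comparison in the fit of all 4 groups. DSP is desmoplakin, the link from desmosomes to keratin, and 2 rows matched it, which the tables do not tell apart as dspa and dspb. The more abundant row (ENSDARG00000076673) stood at 119.7, 145 and 153 CPM in uncut and at 107, 91.9 and 83.3 CPM in cut DMSO libraries, at -0.57 ± 0.25 (edgeR adjusted p = 0.197). The other DSP row (ENSDARG00000022309) had 0.58 ± 0.29, so the copies had opposite signs without a call for either. epcam, an epithelial adhesion molecule, stood at 37.9, 108 and 133 CPM in uncut and at 62.1, 92.0 and 83.4 CPM in cut libraries, which overlap throughout (-0.24 ± 0.42). The tested plakoglobin row (JUP, ENSDARG00000070787) had 0.49 ± 0.18, and the cadherin gene cdh1 had 0.40 ± 0.22. The plakophilins pkp1b and pkp3a had 0.60 ± 0.44 and -0.48 ± 0.28. A fit of only the DMSO groups called that JUP row (edgeR adjusted p = 0.0476) and the more abundant DSP row (edgeR adjusted p = 0.0290). It called 1468 of 13142 genes in all. Total-count scaling called the JUP row and cdh1, and 1958 of 13978 genes in all.

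The tested keratins of the simple-epithelial type rose, unlike the called keratins of the periderm and basal classes. krt18a.1 stood at 46.6, 73.5 and 57.8 CPM in uncut and at 248, 288 and 369 CPM in cut DMSO libraries. It rose by 2.35 ± 0.31 on the log2 scale (edgeR adjusted p = 0.000367). krt18b went from 40.8, 48.1 and 46.7 CPM to 82.0, 84.2 and 94.8 CPM, a rise of 0.94 ± 0.17 (edgeR adjusted p = 0.00224). krt8, the type II partner, went from 519, 665 and 765 CPM to 933, 980.4 and 1364 CPM, a rise of 0.75 ± 0.20 (edgeR adjusted p = 0.0285). No cut library overlapped an uncut one for any of them. Both krt18 genes were called in all 25 alternatives. krt8 lost the call without cut DMSO replicate 3 or 4 and without uncut DMSO replicate 1 or 2 (adjusted p up to 0.155). The fourth row, krt18a.2, was at 0 in every library.

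Keratins without a fixed layer went both ways. krt97 (ENSDARG00000000212) stood at 112, 90.8 and 60.5 CPM in uncut and at 276, 274 and 158 CPM in cut DMSO libraries, with a log2 fold change of 1.43 ± 0.27 (edgeR adjusted p = 0.00404). krt94 stood at 28.7, 40.8 and 29.2 CPM in uncut and at 56.7, 54.2 and 81.1 CPM in cut libraries, at 0.97 ± 0.22 (edgeR adjusted p = 0.0137). krt91, which is as abundant as the basal keratin, stood at 2371, 3296 and 5153 CPM in uncut and at 1913, 1566 and 1622 CPM in cut libraries, at -1.08 ± 0.24 (edgeR adjusted p = 0.0121). All 3 were without overlap, and krt97 was called in all 25 alternatives. The calls of krt94 and krt91 each ended without cut DMSO replicate 4 and without uncut DMSO replicate 4 (adjusted p up to 0.0873 over all alternatives). That of krt94 also ended without uncut DMSO replicate 1. That of krt91 also ended without cut DMSO replicate 3 and in a fit with replicate number as a block. krt15, named here after its value was seen, stood at 65.1, 93.5 and 165 CPM in uncut and at 47.3, 35.8 and 33.6 CPM in cut libraries, at -1.47 ± 0.41 (edgeR adjusted p = 0.0590, DESeq2 adjusted p = 0.00222). krt96 had 1.55 ± 0.58 without a call (edgeR adjusted p = 0.168), and krt99, krt1-c5 and KRT222, all below 11 CPM, lay between -0.10 and 0.31.

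Set side by side as layers, periderm and basal sums were both lower in cut tails, and the basal sum was mostly 1 gene. The periderm rows summed to 22950.5 ± 5569 CPM in uncut DMSO, 11856 ± 1457 in cut DMSO, 22551 ± 2387 in uncut SB431542 and 15091 ± 1694 CPM in cut SB431542 libraries. krt4 and cyt1 made up 40.2% and 31.7% of that sum. The basal rows summed to 4453 ± 413, 2411 ± 315, 3992 ± 434 and 2378 ± 271 CPM in the same order, and krtt1c19e made up 80.3%. Cut and uncut libraries did not overlap in either sum, under either agent.

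The ratio of the periderm to the basal sum, taken within a library, does not depend on the scaling. It was 4.78, 4.57 and 5.98 in uncut DMSO and 5.35, 5.14 and 4.34 in cut DMSO libraries, so the groups overlapped. In SB431542 it was 6.96, 5.38 and 4.82 in uncut and 6.78, 6.67 and 5.65 in cut libraries, which overlap as well. The basal rows other than krtt1c19e and col7a1, set apart after those falls were known, summed to 604 ± 21.2 CPM in uncut and 588 ± 63.7 CPM in cut DMSO libraries, which overlap. Under SB431542 they summed to 519 ± 6.25 CPM in uncut and 603 ± 39.1 CPM in cut libraries, higher in cut and without overlap. The ratio of the simple-epithelial to the periderm sum was 0.0334 ± 0.00548 in uncut and 0.127 ± 0.0321 in cut DMSO tails, and 0.0330 ± 0.00723 and 0.0760 ± 0.0187 in SB431542, again without overlap. krt8 made up 79.4% of the simple-epithelial sum, and under DMSO it was called higher while krt4 and cyt1 were called lower. The separation under DMSO follows from those same values and is no further evidence.

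**Figure D3:**
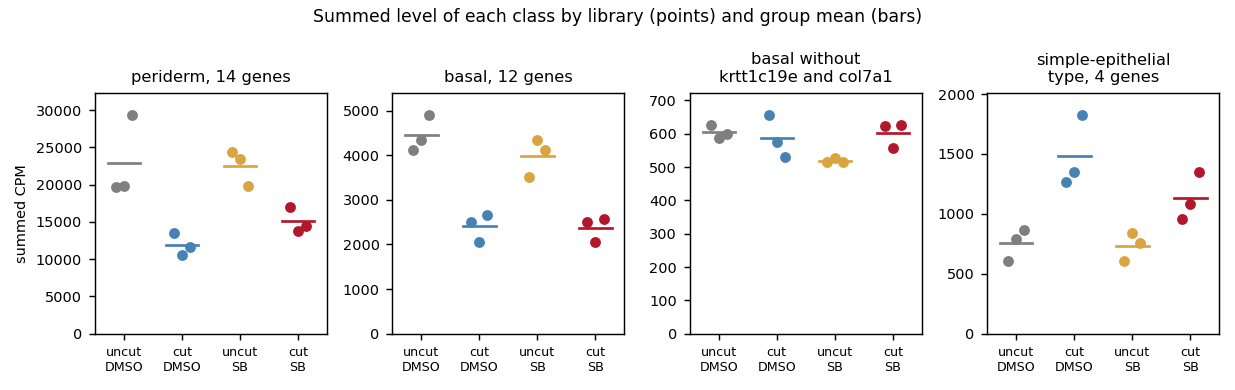
Summed CPM of 4 sets of rows in each library, with points for libraries and bars for group means, on axes from 0. Periderm and basal sums are lower in all cut libraries, the basal sum without krtt1c19e and col7a1 lies between 515 and 658 CPM in all 12, and the simple-epithelial sum is higher in all cut libraries.

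Scaling matters for the size of these changes. When libraries were scaled by total counts in place of TMM, the median log2 fold change of all genes for excision under DMSO was 0.36 and not 0.02. The periderm median was then -0.48 with 3 genes lower, and the basal median 0.23 with 2 higher and 2 lower. Over all genes that fit called 1958 of 13978, against 780 of 13978 with TMM. Taken from the median of all genes, the layers then lay at -0.83 for the periderm and -0.13 for the basal class. With TMM they lay at -0.84 and -0.14. A change of scaling moves all genes by nearly the same amount, so this likeness was fixed in advance. It does not test which scaling is right. The signs of the 15 called genes did not change.

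Neighbouring keratin genes moved in opposite directions in some places and in 1 direction in another. Genes count as neighbours here with at most 1 other protein-coding gene between them. In the order of RefSeq's GRCz12tu annotation, krt5, krt8 and krt18a.1 are neighbours, and the first fell while the other 2 rose. Counts of krt5 were not whole in 4 libraries and those of krt8 in 7. The sum of this group, krt18a.2 included, stood at 1973, 2158 and 2670 CPM in uncut DMSO libraries. In cut DMSO libraries it stood at 2180, 2043 and 2604 CPM, which overlap. krt4 and krt18b are neighbours too, and krt4 fell while krt18b rose. A run of 7 type I rows, in the order krt1-19d, krtt1c19e, krt92, cyt1l, cyt1, krt17 and krt91, held 5 of the 10 falls and no rise. That run joins the basal keratin with periderm keratins. Counts of krt91 and krt92 were not whole numbers in any of the 12 libraries, and those of krt17, cyt1 and cyt1l in 10 or 11, as arises when a read matching more than 1 gene is divided among them, so the split between these copies is less certain than their sum. The sum of the 7 rows stood at 15539, 16499 and 23642 CPM in uncut and at 10097, 8198 and 9547 CPM in cut DMSO libraries, without overlap. For krtt1c19e counts were not whole in 2 libraries, and for krt18a.1, col7a1 and tp63 in 0.

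**Figure D4:**
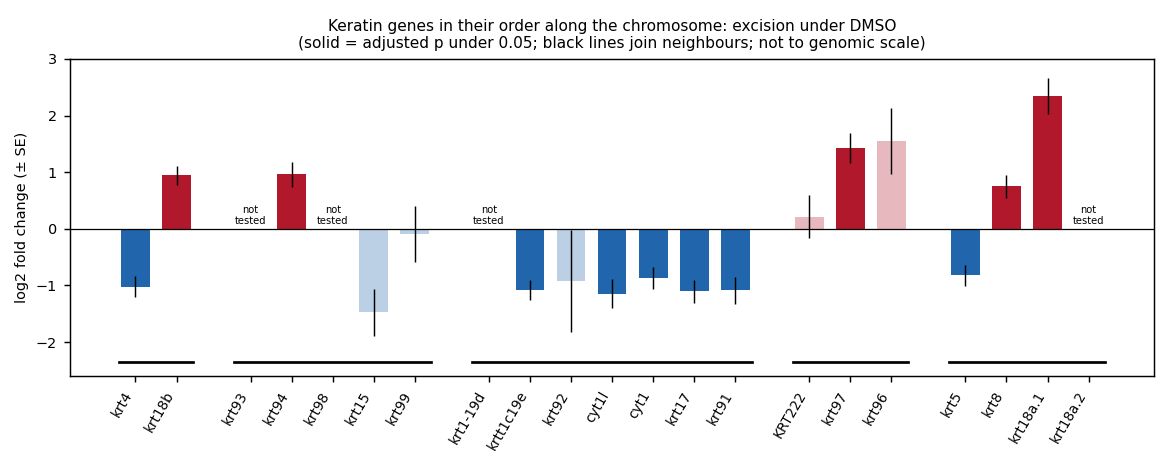
Log2 fold change for excision under DMSO with bars of 1 SE for keratin rows in their order along the chromosome, in 5 groups of neighbours; solid bars passed an adjusted p of 0.05. krt5 points down beside krt8 and krt18a.1, and every tested row of the 7-row run points down.

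Excision under SB431542 called fewer of these genes. 1 fell, where 0.572% of all genes did, and 3 rose, beside 1.49% of all genes. krtt1c19e stood at 2973, 3805 and 3583 CPM in uncut and at 1866, 1499 and 1925 CPM in cut SB431542 libraries, and fell by 0.97 ± 0.18 (edgeR adjusted p = 0.00405). krt18a.1 went from 53.5, 55.8 and 104 CPM to 143, 228 and 314 CPM, a rise of 1.68 ± 0.30 (edgeR adjusted p = 0.00890). krt18b went from 37.0, 50.8 and 39.7 CPM to 71.0, 79.9 and 75.0 CPM, at 0.83 ± 0.17 (edgeR adjusted p = 0.0132). All 3 had the direction seen under DMSO, with no overlap between cut and uncut libraries. krt94 went from 13.4, 17.3 and 22.7 CPM to 35.3, 40.7 and 48.2 CPM, at 1.21 ± 0.24 (edgeR adjusted p = 0.00793). krt94 lost the call without cut SB431542 replicate 4 (adjusted p = 0.0545). krt18b lost it without cut SB431542 replicate 3 and without uncut SB431542 replicate 2, and in the 2-group fit (adjusted p up to 0.104).

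None of the periderm genes was called under SB431542, at a median of -0.48, while DESeq2 called 3. 7 of the 13 had an unadjusted p under 0.05, beside 2239 of the 13978 genes tested. krt4 stood at 9926, 8769 and 9029 CPM in uncut and at 6766, 5654 and 5946 CPM in cut libraries. Those groups did not overlap, at -0.59 ± 0.18 (edgeR adjusted p = 0.101). krt5 had -0.68 ± 0.19 (edgeR adjusted p = 0.0699) and cyt1l -0.82 ± 0.25 (edgeR adjusted p = 0.107). Without uncut SB431542 replicate 4 the number of called members was 8 in place of 4, while that of all genes was 399 of 14480 in place of 288 of 13978. The 4 added were cyt1 at -0.76 ± 0.20, cyt1l at -1.03 ± 0.24, krt17 at -0.73 ± 0.19 and JUP (ENSDARG00000070787) at 0.74 ± 0.19, at adjusted p between 0.0212 and 0.0402. Under SB431542, 14 of the 15 members called under DMSO kept their sign and 4 passed the test. The exception in sign was evpla, at 0.07 ± 0.25. How many of all genes called under DMSO kept their sign or passed is not given here. These counts are therefore not read as particular to the members. col7a1 had -0.76 ± 0.30 under SB431542 without a call (edgeR adjusted p = 0.220), at 19.8, 15.8 and 23.5 CPM in uncut and 16.3, 9.90 and 9.39 CPM in cut libraries, which overlap.

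The difference between these excision effects was tested as an interaction. It was called for 0 of the 42 members and for 0% of all genes. 5 members and 706 genes had an unadjusted p under 0.05, and DESeq2 called 2 of all genes and no member. The lowest adjusted p of a member was 0.910 (edgeR). A smaller fall of the periderm keratins under SB431542 was therefore not shown by this test. The point values of the interaction were positive for 12 of the 13 periderm genes, with a median of 0.40, while the basal median was 0.10 and the median of all genes -0.04. For krt4 the interaction was 0.43 ± 0.26, an interval of 1.96 SE from -0.08 to 0.93.

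SB431542 against DMSO in cut tails called 2 members, krt97 lower and icn higher, beside 0.107% of all genes lower and 0.179% higher. krt97 stood at 276, 274 and 158 CPM in cut DMSO and at 66.9, 69.3 and 77.0 CPM in cut SB431542 libraries, so every treated library lay below every DMSO library. It fell by 1.73 ± 0.27 on the log2 scale (edgeR adjusted p = 0.00995). The call ended without cut DMSO replicate 3, cut SB431542 replicate 2 or cut SB431542 replicate 3, and in a fit with replicate number as a block. The adjusted p ran up to 0.0803 and log2 fold changes lay between -1.53 and -1.95 over all alternatives. Uncut SB431542 libraries stood at 48.9, 56.2 and 91.0 CPM, a range that the cut SB431542 libraries share, and excision under SB431542 had 0.11 ± 0.27 for this gene. The interaction for krt97 was -1.31 ± 0.38 and was not called (edgeR adjusted p = 0.910).

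krt96, the neighbour of krt97, described by library after its values were seen, was also highest in cut DMSO tails by group mean, without a call. It stood at 126, 41.8 and 102 CPM in cut DMSO and at 19.2, 9.61 and 23.4 CPM in cut SB431542 libraries, a log2 fold change of -2.38 ± 0.60 (edgeR adjusted p = 0.120, DESeq2 adjusted p = 0.0150). Counts of both genes were not whole in any library, so reads may be split between them or with other copies. Their sum stood at 402, 315 and 259.7 CPM in cut DMSO, 137, 143 and 77.9 CPM in uncut DMSO, 86.2, 78.9 and 100.4 CPM in cut SB431542 and 61.2, 88.2 and 134 CPM in uncut SB431542 libraries. The cut DMSO libraries were thus the 3 highest of the 12 in this sum. icn stood at 324, 269 and 173 CPM in cut DMSO and at 579.9, 519 and 589 CPM in cut SB431542 libraries, a log2 fold change of 1.14 ± 0.23 (edgeR adjusted p = 0.0447). That call held in 12 of the 25 alternatives, and the libraries without which it ended included all 6 of the cut groups. Reads may be split between icn and icn2, whose sum stood at 631, 528 and 446 CPM in cut DMSO libraries. In cut SB431542 libraries the sum stood at 936, 836 and 886 CPM, without overlap. In uncut tails icn had 0.61 ± 0.23 without a call (edgeR adjusted p = 0.203).

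**Figure D5:**
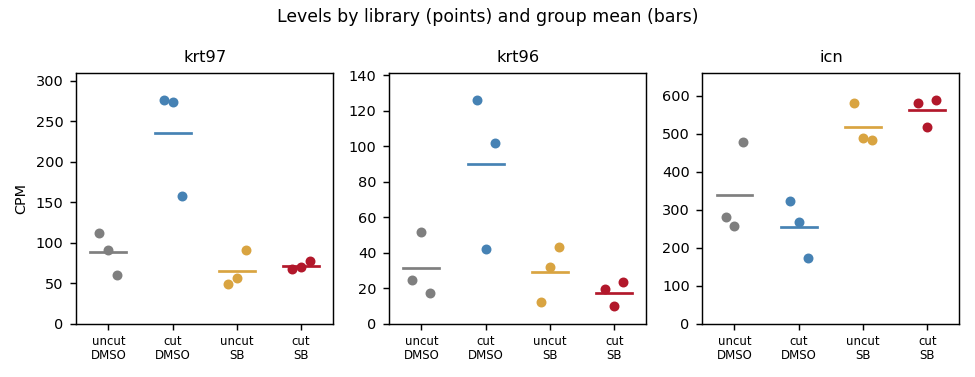
Level in CPM of krt97, krt96 and icn in each library, with points for libraries and bars for group means, on axes from 0. krt97 is highest in the 3 cut DMSO libraries, at 158 to 276 CPM, and icn is higher in the 6 SB431542 libraries than in the 6 DMSO libraries.

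No other member was called with SB431542 in cut tails. The periderm median was 0.42 and the basal median 0.02, and 14 of the 42 members had an unadjusted p under 0.05, beside 2138 of the 13978 genes tested. col7a1 had 1.21 ± 0.34 (edgeR adjusted p = 0.106) and evpla 0.94 ± 0.25 (edgeR adjusted p = 0.0975), and both were called without uncut SB431542 replicate 4 and by DESeq2. cldn1, at -0.74 ± 0.28 (edgeR adjusted p = 0.221), was also called without that library, which is of a group not compared here. Over all genes the fit without it called 473 of 14480 and DESeq2 330 of 10180, against 40 of 13978. epcam stood at 166, 169 and 148 CPM in cut SB431542 libraries, above all 3 cut DMSO libraries, at 1.02 ± 0.42 (edgeR adjusted p = 0.282). pkp3a had 0.95 ± 0.28 (edgeR adjusted p = 0.122), also without overlap. A fit of only the cut groups called epcam (adjusted p = 0.00406) and pkp3a (adjusted p = 0.0428), and called 537 of 13415 genes in all, while the fit of all groups called 40 of 13978. krtt1c19e had -0.04 ± 0.17, with an interval of 1.96 SE from -0.39 to 0.30. In uncut tails no member was called with SB431542, where 0.0644% of all genes were higher and 0.0143% lower. 6 of the 42 members had an unadjusted p under 0.05, beside 2307 of the 13978 genes tested. DESeq2 called krt94 at -0.90 ± 0.25 (adjusted p = 0.0259), and 331 of 13703 genes in all. Without uncut SB431542 replicate 3 edgeR called 2 members, the DSP row ENSDARG00000076673 at -1.11 ± 0.25 and fras1 at 1.01 ± 0.25, in a fit that called 666 of 14521 genes in all, against 11 with that library. The layer medians there were -0.03 for the periderm and -0.18 for the basal class.

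Related genes outside the list were counted in the same fit for excision under DMSO. Of 9 tested desmosome and adherens junction genes 1 fell, the desmocollin dsc2l at -0.84 ± 0.20 (edgeR adjusted p = 0.0164), and 0 rose. Of 20 tested tight junction genes 0 were called, with a median of -0.05. Of 23 tested genes of the periderm and its barrier 1 fell, a transglutaminase row matched as TGM1, at -1.93 ± 0.38, and 1 rose, s100a10b at 1.07 ± 0.19. The other row matched as TGM1 was not called. This list had a median of -0.04, against -0.82 for the periderm class above. Its summed level was 572 to 711 CPM in uncut and 550 to 661 CPM in cut DMSO libraries, which overlap. Of 13 tested intermediate filament genes other than keratins 2 rose and 3 fell. The vimentin gene vimr1 rose by 1.33 ± 0.25 and the lamin gene LMNA by 1.82 ± 0.27, while vimr2 and the neurofilament genes nefma and nefmb fell by 0.70 ± 0.17, 1.07 ± 0.30 and 0.99 ± 0.27. Under SB431542 the excision calls in these lists were the rises of cldna (1.31 ± 0.34), s100a10b and LMNA and the fall of vimr2. SB431542 in cut tails called cldna, a claudin at 1.65 ± 0.349 CPM in cut DMSO tails, higher by 1.74 ± 0.33.

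Markers of other cell types moved in the same samples, and their part in the keratin values was not tested. Of 12 matched macrophage rows 6 were tested, and 5 rose with excision under each agent. Their summed level went from 29.6 to 42.7 CPM in uncut to 105 to 194 CPM in cut DMSO libraries, and from 30.4 to 36.0 to 93.5 to 170.5 CPM under SB431542. 4 of 6 skeletal muscle genes fell under DMSO, from a sum of 105028 to 115561 CPM down to 50698.5 to 75313 CPM. 3 of 5 tested notochord genes fell under each agent, from 1060.3 to 1432 CPM down to 448 to 522 CPM under DMSO. 2 of 3 neutrophil genes rose under DMSO and 1 under SB431542, while the sums of 340.1 to 479 CPM in uncut and 356 to 458 CPM in cut DMSO libraries overlapped. No tested gene of ionocytes (6), mucous cells (3), fin fold mesenchyme (4), pigment cells (4), erythrocytes (2) or neurons (5) was called on excision under either agent. The ionocyte gene RHCG (ENSDARG00000007080) was higher with SB431542 in cut tails, at 1.74 ± 0.33.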

How the data were processed

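The authors deposited a table of raw estimated counts per Ensembl gene, where fractional values were 23.1% to 26.7% of those above 0 in each library. They also deposited a normalized signal per gene, from which whole numbers were recovered for 100% of values within 1e-04. These are called recovered reads below. They gave the same median log2 fold change over all genes as the rounded estimated counts. Reads before their division between genes were not shown to be recovered. Per the submitters' processing notes the build was GRCz11. The aligner, counter and strand setting were not given in the sources used here. Per the labels' protocols, libraries were made with the QuantSeq FWD kit, which reads transcript ends.

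A reference table of symbols named 77.99% of rows, with 2 members matched by a RefSeq synonym. Members, classes and lists were chosen with earlier results of these data known. Described by library were the members called in a pairwise comparison and the 2 most abundant tested members of each class; krt15 and krt96 were added after their values were seen.

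Estimated counts were rounded and fitted with edgeR 4.0.16 in R 4.3.3 as 4 group means with TMM scaling, filterByExpr, and robust quasi-likelihood F tests, two-sided, with Benjamini-Hochberg adjustment over 13978 genes and calls at 0.05. In counts simulated for excision under DMSO over 13978 genes, every gene had the same biological coefficient of variation, 0.261. There 100% of 4-fold and 30% of 2-fold changes were called. SE is the log2 fold change over the root of F. Alternatives were RLE, upper-quartile and total-count scaling, DESeq2 1.42.0, limma 3.58.1 (voom, and trend on the normalized table with a pseudocount of 1 or 0.1), other filters, the earlier quasi-likelihood method, recovered reads, a 2-group fit, a replicate block, and leaving out each library. Total-count scaling, recovered reads and the earlier method were added after the data were seen. Recovered reads gave the same number of calls as the main fit in every comparison. They are counted among the 25 alternatives but are no separate check. The leave-outs of a comparison include libraries of groups not compared in it. 1 list of related genes is not reported here.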

Additional observations from a re-analysis of the deposited data

How the results depend on the processing

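No called member changed direction under any alternative that was run. Class medians near 0 moved across it in some. The direction of uncalled members was not compared between settings. Under total-count scaling the excision medians were -0.48 for the periderm and 0.23 for the basal class under DMSO, and -0.17 for the periderm under SB431542. Leaving out 1 library gave 8 to 20 called members for excision under DMSO in place of 15, 3 to 8 in place of 4 under SB431542, 0 to 5 in place of 2 for SB431542 in cut tails, and 0 to 2 in place of 0 in uncut tails. Over all genes these fits called 321 to 1432, 119 to 399, 9 to 473 and 0 to 666 in the same order. For excision under SB431542, DESeq2 and total-count scaling each called 8, where they called 553 of 12619 and 814 of 13978 genes. For SB431542 in cut tails, DESeq2 and the 2-group fit each called 6, where they called 330 of 10180 and 537 of 13415 genes, against 40 of 13978. There the earlier quasi-likelihood method, limma-trend with either pseudocount and total-count scaling each called 1. Over all 13978 genes the earlier method called 12, limma-trend 9 with either pseudocount, and total-count scaling 27. In uncut tails DESeq2 called 1 member and 331 of 13703 genes. The cause of these shifts was not tested. Of the single-gene calls, 468 repeats under another setting held and 57 missed the threshold.

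The replicate numbers were not taken to pair the samples, since not every same-numbered pair correlated above 0.1. Correlations of deviations ran from -0.0498 to 0.343 over 13 same-numbered pairs (median 0.0357), and from -0.284 to 0.182 over the others (median -0.0218). The fit with a replicate block called 14 members for excision under DMSO, 5 under SB431542, 0 for SB431542 in cut tails, and 0 in uncut tails. Over all 13978 genes it called 615, 339, 14 and 18 in the same order. With that block krt97 in cut tails had an adjusted p of 0.0609 and krt91 for excision under DMSO one of 0.0570 (edgeR).

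The 7 rows that never passed 1.06 CPM were not tested. In the simulation 2-fold changes were often missed with 3 libraries a group. It gave every gene the same spread, so its share of calls does not carry over to single members. For excision under DMSO krt4 and krt18b were called at fold changes of 2.03 and 1.92.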
